A study of Mus musculus with 4 samples.

Results

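Capillary-venous ECs are the ECs of the stretch of microvessel where capillaries drain into postcapillary venules. In the CNS, leukocytes leave the blood mostly across venules, whereas capillaries carry most of the transporters of the blood-brain barrier, so these cells sit between both kinds of vessel. They were identified in the single-cell transcriptomes of SCs from mice with EAE, a model of multiple sclerosis in which immunization against a myelin peptide causes T cell–driven inflammation of the CNS. A barcode counted as a capillary-venous EC by its unique molecular identifiers (UMIs, which mark single captured transcripts). It needed at least 2000 UMIs with under 10% from mitochondrial genes, and at least 5 UMIs of *Cldn5*, *Cdh5*, *Egfl7*, and *Esam* together. At most 2 UMIs of the leukocyte genes *Ptprc*, *Laptm5*, and *Coro1a*, and at most 1 of the mural cell genes *Pdgfrb*, *Kcnj8*, and *Abcc9*, were allowed. The cell then had to hold at least 3 UMIs of *Slc38a5* and *Tfrc* together, no UMI of *Ackr1*, at most 1 of the arterial genes *Bmx*, *Sema3g*, *Gkn3*, and *Hey1*, and at most 4 of *Trp53i11*, *Tubb6*, and *Apln*, which mark sprouting-type ECs. *Slc38a5* encodes a neutral amino acid transporter (GRCm38 chromosome X, 8271133 to 8280179, plus strand), and *Tfrc* encodes the transferrin receptor that takes up iron (chromosome 16, 32608920 to 32632794, plus strand). *Ackr1* encodes an atypical chemokine receptor of venular ECs (chromosome 1, 173331886 to 173333750, minus strand). The gate found 1819 cells among 12338 ECs and 26525 cells in all.

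The 4 libraries held 1 condition each, and CD45+ leukocytes and CD31+ ECs were sorted in equal numbers. The mIgG1 library came from wild-type C57Bl/6JOlaHsd mice, 15 weeks of age, given the isotype control antibody from EAE induction on and taken at 14 days post immunization (dpi). The Ang2 Ab library came from mice of the same strain, age, and time point given the Ang2-blocking antibody. The *EC-Ang2* library came from double transgenic mice (*VE-cadherin-tTA* and *Tet-OS-Ang2*, C57Bl/6JCrl, 12 to 14 weeks, 12 dpi) in which an EC promoter drives an Ang2 transgene that doxycycline kept off until birth, and the Ctrl library came from single transgenic littermates. All mice had been immunized with MOG35-55 in CFA, and the transgenic mice and their controls were given less pertussis toxin. How many mice entered a library is not given, and because each condition had 1 library, differences between conditions are described without a test. The exact 95% intervals beside them account for counting error alone. Where 4 values stand without names, they follow the order mIgG1, Ang2 Ab, Ctrl, *EC-Ang2*.

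Capillary-venous ECs numbered 359, 593, 761, and 106. Their share of ECs was 12.2% for mIgG1 (Clopper-Pearson interval 11.1% to 13.5%) and 17.1% for Ang2 Ab (15.9% to 18.4%). It was 21.5% for Ctrl (20.2% to 22.9%) and lowest for *EC-Ang2*, at 4.41% (3.63% to 5.31%). Their median depth was 3892, 3506, 4309, and 4990 UMIs and their summed UMIs were 1610239, 2412245, 3780384, and 582802. One barcode was shared by capillary-venous ECs of mIgG1 and Ang2 Ab (1), and none (0) by those of the other library pairs, while 51 to 77 cell barcodes of all kinds were shared by each pair. The members were chosen by these values, so their share is a description.

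The share depended on *Ackr1*. When all of the gate except *Ackr1* was applied, 1090, 1230, 1241, and 490 cells passed, which were 37.2%, 35.4%, 35.1%, and 20.4% of ECs. Among these, cells with no *Ackr1* UMI were 32.9%, 48.2%, 61.3%, and 21.6%, and cells with 6 or more were 44.7%, 33.2%, 22.3%, and 58.8%. The climb from mIgG1 to Ang2 Ab and Ctrl was thus absent without the *Ackr1* condition, and *EC-Ang2* was lowest with and without it. The genes that the gate requires were also lowest in *EC-Ang2* in venous ECs. There *Slc38a5* stood at 798, 950, 972, and 478 CPM and *Tfrc* at 70.8, 67.5, 60.9, and 36.8 CPM (UMIs per 1000000). The part of these levels in the low *EC-Ang2* share was not tested. Free RNA, which leaks from broken cells into every droplet, carried *Ackr1* at 585, 475, 623, and 1552 UMIs per 1000000 (CPM), and 24.7%, 18.6%, 14.3%, and 32.9% of immune cells, which should lack the gene, held an *Ackr1* UMI at median depths of 7087, 5875, 6655, and 7328 UMIs. The part of free *Ackr1* RNA in the shares was not tested. Cells with 1 or 2 *Ackr1* UMIs were 14.7%, 13.5%, 12.8%, and 13.9% of those that met the rest of the gate.

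**Figure D1:**
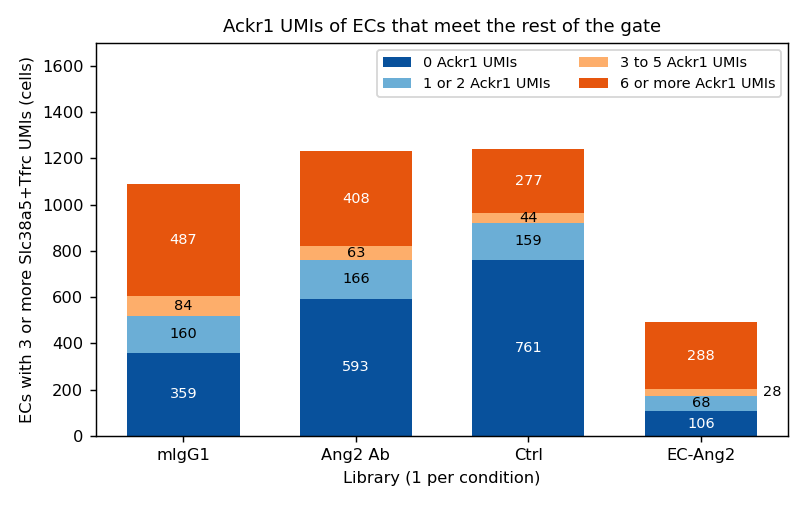
*Ackr1* UMIs of the ECs that met all other conditions, in number of cells (y axis) for each library (x axis), with colors for the number of *Ackr1* UMIs. The dark blue stretches are the capillary-venous ECs (359, 593, 761, and 106 cells), and the orange stretches, with 6 or more UMIs, hold 487, 408, 277, and 288 cells.

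The cells carried EC transcripts that the gate had not used. *Pecam1*, which encodes the CD31 of the sort, was detected in 92.2%, 85.5%, 91.1%, and 97.2% of capillary-venous ECs, at 694, 590.3, 612, and 691 CPM against 17.5 to 29.0 CPM in immune cells. *Slc2a1*, the glucose transporter of barrier ECs, had a UMI in every capillary-venous EC of each library (100%). *Slc38a5*, which the study uses as a venous marker, gave most of the gated UMIs. Its median was 4, 4, 4, and 3 UMIs, and a *Tfrc* UMI was found in 40.4%, 33.9%, 41.7%, and 31.1% of the cells. Cells at exactly 3 UMIs numbered 115, 177, 190, and 39, and cells just outside the gate, with 2, numbered 160, 239, 303, and 78. Across that line, *Scgb3a1*, which the study uses as a marker of these cells, stood at 1346, 5652, 3298, and 3903 CPM with 2 UMIs and at 1842, 8878, 3766, and 3116 CPM with 3. For *Scgb3a1* the line thus divided neighboring values rather than separate groups, and in *EC-Ang2* the cells outside it were the higher ones. *Vcam1* stood at 168, 134, 29.1, and 160 CPM with 2 UMIs and at 212, 98.1, 75.5, and 315 CPM with 3.

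Transcripts of other cell types were present at varied levels. The 6 fibroblast markers summed to 0, 3, 4, and 1 UMIs, and the 6 T cell markers found in the files to 11, 28, 20, and 6 UMIs. The 12 myeloid markers summed to 1318, 992, 640, and 386 CPM, led by *Lyz2*, with 6, 6, 21, and 1 UMIs of *Cx3cr1* and 0, 4, 15, and 0 of *P2ry12*. The 6 granulocyte markers summed to 31.1, 127, 381, and 96.1 CPM, the 11 mural markers, led by *Rgs5*, to 279, 292, 302, and 247 CPM, and the 6 astrocyte markers to 76.4, 133, 116, and 146 CPM. Their part in the differences between libraries was not tested. The share of capillary-venous EC UMIs that free RNA would supply, estimated from 14 immune-only genes, was 6.39%, 7.56%, 4.54%, and 3.06%. Hemoglobin transcripts differed more between the libraries, at 0.621, 778, 13385, and 3125 CPM. Most of them lay in 3 Ang2 Ab, 14 Ctrl, and 2 *EC-Ang2* cells in which they made up 1% or more of the UMIs, which held 99.5%, 99.3%, and 98.3%.

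Capillary-venous ECs were then compared with both neighbors along the vessel, to ask which genes outside the gate set them apart. Other capillary ECs met the same gate with at most 2 UMIs of *Slc38a5* and *Tfrc* (3837 cells). Venous ECs met the EC gate, held *Ackr1*, and met further class limits on gate genes (3599 cells, some of which hold *Slc38a5* and *Tfrc*). They were 1053, 969, 720, and 857 of the 1409, 1199, 868, and 1369 ECs with an *Ackr1* UMI. The class limits left out the remainder, so venous ECs here are not all ECs with *Ackr1*. UMIs were summed over the cells of a class in each library, and the classes were compared within libraries over the 4 libraries by edgeR's quasi-likelihood test, with Benjamini-Hochberg adjustment over all genes. The 20 gate genes were left out. Against other capillary ECs, 236 of 9673 genes were higher in capillary-venous ECs (2.44%) and 327 lower (3.38%). Against venous ECs, 745 of 10476 were higher (7.11%) and 935 lower (8.93%). The calls rest on comparing classes inside each library: with libraries not taken as a block, edgeR called 0 genes higher (183 at an unadjusted p below 0.05; DESeq2, with the block, called 67) and 23 lower than in other capillary ECs, and 80 and 211 against venous ECs. In cells of 4000 to 8000 UMIs only, the counts were 59 and 95, and 255 and 388. Without the Ang2 Ab library, 124 were higher and 189 lower than in other capillary ECs, and without Ctrl 157 were higher.

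Acute-phase genes were among those that rose over other capillary ECs. *Lrg1*, which encodes a secreted leucine-rich glycoprotein of the acute phase, was at 709, 1629, 691, and 1723 CPM in capillary-venous ECs, against 356, 792, 381, and 919 CPM in other capillary ECs. It was higher in every library whatever its level there, with a log2 difference of 0.97 ± 0.04 (SE, 4 libraries; edgeR adjusted p = 2.7e-14). *Lcn2*, which encodes lipocalin 2, was at 674, 1473, 2531, and 3197 CPM against 428, 823, 1400, and 1746 CPM (log2 difference 0.83). Among genes with a mean of at least 50 CPM in the higher class and the same direction in 4 libraries, *Serpina3n*, an inhibitor of serine proteases, had the largest rise (log2 difference 1.35 ± 0.11; edgeR adjusted p = 4.7e-09), from 5.25, 13.8, 55.2, and 98.4 CPM to 26.1, 37.3, 109, and 304 CPM. With these, 3 of the 6 acute-phase genes tested were higher (all genes tested 2.44%) and 0 lower (3.38%), the median log2 difference of the 6 being 0.49 against 0.00 for all genes tested.

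Adhesion genes were higher for 3 of 11 tested and lower for 1 (median log2 difference 0.08), chemokine and cytokine genes higher for 3 of 12 and lower for 1 (-0.10), and interferon-induced genes higher for 1 of 29 and lower for 6 (-0.13), beside 2.44% higher and 3.38% lower of all genes tested. *Icam1*, the adhesion molecule that leukocytes bind through LFA-1, stood at 284, 227, 227, and 371 CPM against 164, 159, 112, and 224 CPM (log2 difference 0.79 ± 0.07; edgeR adjusted p = 3.7e-09). *Vcam1*, which binds the α4 integrins of T cells (chromosome 3, 116109949 to 116129688, minus strand), rose less evenly, from 145, 89.2, 30.5, and 166 CPM to 171, 110.3, 120.4, and 353 CPM, with the largest ratio in Ctrl. Its log2 difference of 0.88 ± 0.15 (edgeR adjusted p = 0.00031) was not kept past the threshold in cells of 4000 to 8000 UMIs, where it was 0.52 (edgeR adjusted p = 0.23), nor by DESeq2 (adjusted p = 0.55). The IL-1 receptor gene *Il1r1* (log2 difference 0.98), the neutrophil chemokine gene *Cxcl1* (0.71), and *Gpr182* (0.94), a receptor gene of ECs, were higher in all 4 libraries. All 4 venous markers tested were higher, namely *Sele* (1.27), *Nr2f2* (0.90), *Vcam1*, and *Vwf* (0.48), which encode E-selectin, the venous transcription factor COUP-TFII, VCAM-1, and von Willebrand factor.

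*Scgb3a1* (chromosome 11, 49663610 to 49665118, plus strand), which encodes a small secreted protein of the secretoglobin family, was highest in capillary-venous ECs among these 3 classes. It stood at 1899, 8588, 3926, and 2761 CPM, against 1032, 3942, 2581, and 2097 CPM in other capillary ECs and 887, 3815, 2463, and 906 CPM in venous ECs. Both differences held in all 4 libraries (log2 0.78 ± 0.06, edgeR adjusted p = 2.5e-09, and 1.06 ± 0.08, edgeR adjusted p = 2.1e-09). *Angpt2*, the study's other marker for these cells, was not highest there. The gate leaves out sprouting-type ECs, in which *Angpt2* stood at 91.5, 1561, 245, and 2288 CPM, and ECs with *Ackr1*, so the class is not the study's cluster. *Angpt2* was lower than in other capillary ECs in all 4 libraries (log2 difference -0.50, edgeR adjusted p = 0.0037; DESeq2 adjusted p = 0.54), and against venous ECs its difference of 0.31 did not pass (edgeR adjusted p = 0.12).

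Of 4 capillary-arterial markers 2 were lower than in other capillary ECs and 0 higher (median log2 difference -0.30), as were both arterial markers that could be tested. *Cxcl12*, a chemokine gene of capillary and arterial ECs, was at 593, 432, 727, and 247 CPM against 907, 823, 1275, and 439 CPM (log2 difference -0.77; edgeR adjusted p = 2.3e-11). Under the same limits on level and direction, the arterial marker *Stmn2* had the largest fall (log2 difference -2.23), followed by *Mgp* (-1.44), which encodes an extracellular inhibitor of calcification, *Igfbp3* (-1.41), *Cdk19* (-1.41), *Amd1* (-1.18), and *Prss23* (-1.15). The mural genes *Acta2* (-5.30) and *Tagln* (-4.90), both below that level, fell more by log2 difference, at 0 to 3.43 and 0 to 5.15 CPM in capillary-venous ECs against 19.1 to 36.3 and 17.6 to 29.2 CPM in other capillary ECs, and 5 of the 6 mural markers tested were lower. Granulocyte transcripts *S100a8* (-0.84) and *S100a9* (-0.80) fell by the same test but not in cells of 4000 to 8000 UMIs. By the same estimate from immune-only genes, free RNA would supply 8.84%, 9.83%, 4.91%, and 4.86% of the UMIs of other capillary ECs. These shares were above those of capillary-venous ECs in each library, and their part in the class differences of leukocyte transcripts was not tested. Of 16 barrier transporters tested 4 were higher, beside 2.44% of all genes, among them *Slc16a1* (monocarboxylates, 0.45) and *Slc38a3* (glutamine, 0.39), 1 was lower, beside 3.38%, *Slc6a6* (taurine, -0.53), and the median of the 16 was 0.08. *Mfsd2a*, which encodes the lipid transporter that restrains transcytosis at the barrier, did not pass at -0.07 (edgeR adjusted p = 0.56).

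Most barrier transporters were higher than in venous ECs. Of 16 tested, 14 were higher (all genes tested 7.11%) and 0 lower (8.93%), with a median log2 difference of 0.54 (all genes tested 0.01). *Mfsd2a* was at 191, 171, 296, and 125 CPM, against 73.8, 80.7, 124, and 37.8 CPM in venous ECs (log2 difference 1.23 ± 0.07; edgeR adjusted p = 2.1e-11). The organic anion transporter gene *Slc22a8* (1.07) and *Slc6a6* (1.07) were higher as well. Capillary-arterial markers rose in 4 of 4, led by *Cxcl12* (1.35 ± 0.07; edgeR adjusted p = 1.7e-12). *Tmeff1* (1.26), *Rasgrp2* (1.199), an exchange factor for Ras-family GTPases, and *Pmaip1* (1.16), a proapoptotic BCL2-family gene, completed the leading rises with *Hba-a1* (1.24), a hemoglobin gene. It was at 0.621, 209, 3120, and 947 CPM, mostly in the few cells rich in hemoglobin named above, and in cells of 4000 to 8000 UMIs its difference of 0.80 did not pass (edgeR adjusted p = 0.37).

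*Selp* and *Vcam1*, adhesion genes of venules, fell against venous ECs. *Selp*, which encodes P-selectin, was at 1.86, 0.415, 1.06, and 15.4 CPM in capillary-venous ECs and at 131, 98.9, 122, and 345 CPM in venous ECs. *Vcam1* was at 940, 874, 977, and 1327 CPM in venous ECs, so capillary-venous ECs were lower in all 4 libraries (log2 difference -2.71 ± 0.11; edgeR adjusted p = 2.8e-14). *Ubd* (-5.42), which encodes a ubiquitin-like protein induced by cytokines, *Csf3* (-3.93), the gene of the granulocyte growth factor G-CSF, *Mustn1* (-3.35), *Cadm3* (-3.25), the complement genes *C1s1* (-4.91) and *C1ra* (-3.14), *Sdc4* (-3.41), *Cd14* (-3.02), and *Itih4* (-6.51) made up the other leading falls. With 1 library left out, *Itih4* ranged from -7.37 to -4.84 and *C1s1* from -5.94 to -3.99. Adhesion genes were lower for 4 of 12 tested and higher for 2 (median log2 difference -0.08). Chemokine and cytokine genes were lower for 9 of 14 and higher for 3, and acute-phase genes were lower for 5 of 7 and higher for 0. Of all genes tested, 8.93% were lower and 7.11% higher. *Lrg1*, *Lcn2*, *Icam1*, *Il1r1*, *Cxcl1*, *Sele*, *Nr2f2*, and *Vwf*, which had been higher than in other capillary ECs, were lower than in venous ECs (log2 differences of -1.52, -2.11, -1.08, -1.82, -2.21, -2.65, -1.98, and -1.33). Both tests share the capillary-venous cells, and the levels of the 3 classes are plotted library by library.

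**Figure D2:**
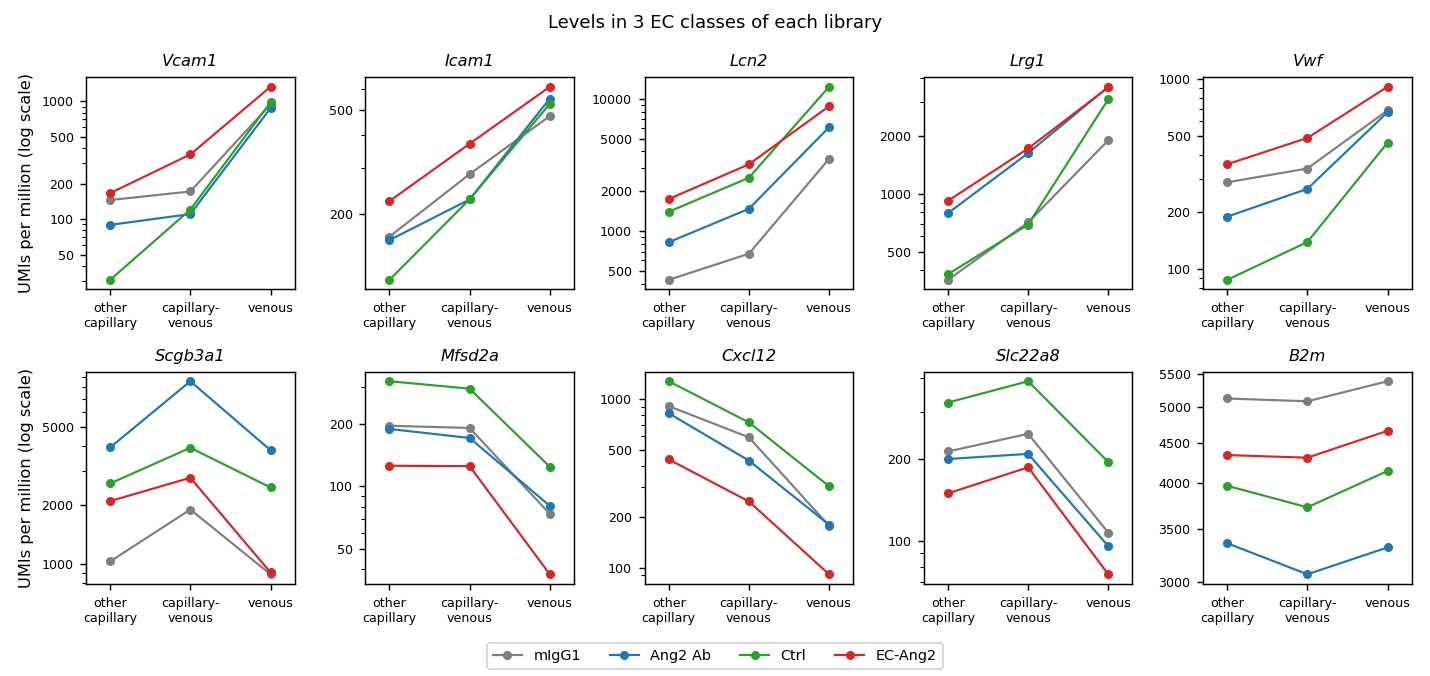
Levels of 10 genes (y axes, CPM on log scales that differ between panels) in other capillary, capillary-venous, and venous ECs (x axes), with 1 line for each library. *Vcam1*, *Icam1*, *Lcn2*, *Lrg1*, and *Vwf* climb from left to right in each library, *Cxcl12* descends, *Scgb3a1* is highest in the middle, and *Mfsd2a* drops mainly at the venous step.

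MHC class I transcripts were compared between the same classes. Cells display peptides from their own proteins to CD8 T cells on class I molecules, which consist of a heavy chain (*H2-K1*, *H2-D1*) and β2-microglobulin (*B2m*). Of 20 class I pathway genes, 1 was higher and 0 lower than in other capillary ECs (median 0.01; 2.44% and 3.38% of all genes tested), and 0 were higher and 10 lower than in venous ECs (median -0.19; 7.11% and 8.93% of all genes tested). *B2m* stood at 5078, 3072, 3732, and 4310 CPM, with a log2 difference of -0.04 from other capillary ECs (edgeR adjusted p = 0.57) and -0.18 from venous ECs (edgeR adjusted p = 0.0039). Of 34 genes that the study lists for capillary-venous ECs, 8 were higher and 4 lower than in other capillary ECs, and 0 were higher and 23 lower than in venous ECs, to be read against the same shares.

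The blockade pair asks how neutralizing Ang2 during EAE bears on these cells. A gene was counted when 10% of the cells of 1 library held a UMI and both libraries together held at least 50, and it was called by size at a 1.5-fold difference in CPM. Of 5192 genes counted, 214 were higher in Ang2 Ab than in mIgG1 (4.12%) and 181 lower (3.49%), and for 202 and 171 of these the counting interval left out no change. As a yardstick, both control libraries were compared with each other. They differ in strain, age, time point, and pertussis toxin, and 233 of 5478 genes were higher (4.25%) and 238 lower (4.34%) in Ctrl than in mIgG1, so as many genes differed between the controls as within the pair.

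Several class I genes were lower in Ang2 Ab than in mIgG1. *H2-K1* was at 1345 CPM in mIgG1 and 816 in Ang2 Ab (log2 ratio -0.72, counting interval -0.81 to -0.63), *H2-D1* at 3146 and 1948 (-0.69), and *B2m* at 5078 and 3072 (-0.73). Nonclassical genes were lower too, *H2-Q7* with 192 and 58.0 CPM (-1.73, -2.02 to -1.43), *H2-Q6* with 68.9 and 25.3 (-1.45), *H2-Q4* with 253 and 128 (-0.99), *H2-T22* with 265 and 147 (-0.85), and *H2-T23* with 184 and 111 (-0.73). Reads of these near-identical copies may be split or lost between them, and free RNA would give 11.1% and 35.1% of the *H2-Q7* UMIs in mIgG1 and Ang2 Ab. *Psmb9*, an immunoproteasome subunit gene, was at 174 and 93.7 CPM (-0.89). In all, 9 of 19 class I pathway genes counted were at least 1.5-fold lower (all genes counted 3.49%) and 0 higher (4.12%), with a median log2 ratio of -0.58 (all genes counted 0.01). The chaperone genes *Calr* (0.02) and *Pdia3* (0.12), which also serve other proteins, stayed within 1.5-fold.

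Most of these genes had like levels in Ctrl and in Ang2 Ab. In Ctrl, *H2-K1* was at 871 CPM, *H2-D1* at 2081, *H2-Q7* at 55.0, and *H2-Q4* at 119. Against mIgG1, 10 of 19 class I genes counted were lower in Ctrl (all genes counted 4.34%) and 0 higher (4.25%), with a median log2 ratio of -0.60. Summed over the class I list, the level was 13360 CPM in mIgG1, the highest of the 4 libraries, and 8657, 9357, and 11520 CPM in the others, so an effect of Ang2 Ab and a high mIgG1 library cannot be told apart. By value the other classes were alike, with a median of -0.62 in other capillary ECs and -0.60 in venous ECs of the same libraries, and a difference between the classes was not tested.

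**Figure D3:**
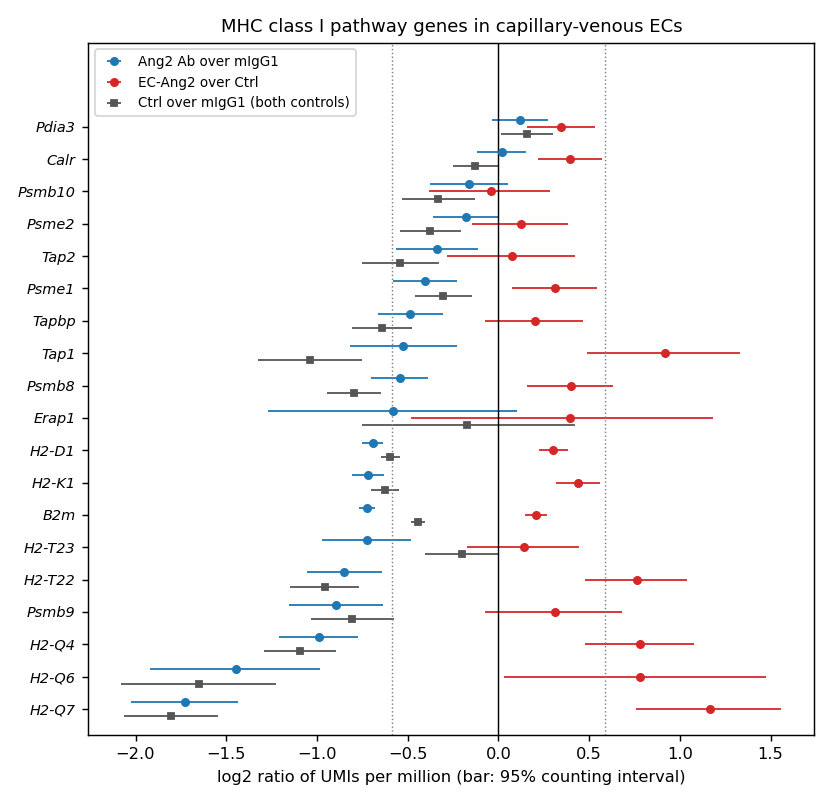
Log2 ratios of CPM (x axis) with 95% counting intervals for the 19 class I pathway genes counted in capillary-venous ECs (y axis), for Ang2 Ab over mIgG1 (blue), *EC-Ang2* over Ctrl (red), and Ctrl over mIgG1 (gray squares). Dotted lines mark 1.5-fold. Blue and gray points lie mostly left of 0 and near each other, from *H2-Q7* at -1.73 and -1.80 up to *Pdia3*, and red points lie mostly right of 0.

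Interferon-induced genes were lower in Ang2 Ab for 8 of 24 counted (all genes counted 3.49%) and higher for 0 (4.12%), with a median of -0.35. Among the lower ones were the guanylate-binding protein genes *Gbp2* (379 and 219 CPM, -0.79), *Gbp3* (186 and 89.1, -1.06), *Gbp4* (173 and 80.4, -1.11), and *Gbp7* (182 and 95.8, -0.93), and the GTPase genes *Irgm1* (134 and 58.5, -1.19), *Irgm2* (41.6 and 26.1, -0.67), and *Ifi47* (114 and 73.4, -0.64). In cells of 4000 to 8000 UMIs, *Gbp2* (-0.41), *Irgm2* (-0.36), and *Ifi47* (-0.52) were within 1.5-fold. So was *Irgm2* with at least 5 UMIs of *Slc38a5* and *Tfrc* (-0.51), without the 10% of ECs with the most UMIs (-0.57), without the *Ackr1* gate (-0.45), and with up to 2 *Ackr1* UMIs (-0.57). Other members of the list, among them *Isg15* at -0.08 (471 and 446 CPM), *Ifit1* at -0.16, *Usp18* at 0.02, and *Ifitm3* at -0.06, stayed within 1.5-fold. In Ctrl over mIgG1, 14 of 24 interferon-induced genes counted were lower (all genes counted 4.34%) and 0 higher (median -0.67).

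Promoters of *B2m*, *Gbp2*, and *Irgm1* are printed because these genes were lower in Ang2 Ab and carry the letters GAAANNGAA, from the interferon-stimulated response element that IRF and STAT factors bind. Each run is the 160 bases before the RefSeq start site on GRCm38.p6, in the direction of the gene, with matches on either strand in capitals. The *Irgm1* run holds 2 matches that overlap, which begin at positions -30 and -24 from the start.
B2m, chr2:122147527-122147686, plus strand: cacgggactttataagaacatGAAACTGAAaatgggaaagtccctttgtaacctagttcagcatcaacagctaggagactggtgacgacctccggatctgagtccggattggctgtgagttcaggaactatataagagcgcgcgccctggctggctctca
Gbp2, chr3:142620503-142620662, plus strand: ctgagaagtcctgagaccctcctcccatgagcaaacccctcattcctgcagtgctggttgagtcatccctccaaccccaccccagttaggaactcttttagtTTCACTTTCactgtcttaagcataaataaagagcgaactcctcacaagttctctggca
Irgm1, chr11:48871421-48871580, minus strand: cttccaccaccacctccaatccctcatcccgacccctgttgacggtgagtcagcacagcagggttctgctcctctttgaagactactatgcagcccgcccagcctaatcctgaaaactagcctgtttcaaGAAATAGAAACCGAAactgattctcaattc

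RefSeq promoters (250 bases before to 50 after a start) matched 38 of the 43 class I and interferon-induced genes counted. A gene was taken to hold a motif when any of its promoters did. GAAANNGAA lay in 19 of these (50%), against 9.44% of all 4048 genes counted that had a promoter, and 8.56% of all 32851 single promoters. Among the 15 genes lower in Ang2 Ab it lay in 8 (53.3%), and among the 23 within 1.5-fold in 11 (47.8%). TTCNNNGAA, the core of the GAS element of interferon-responsive promoters, lay in 2 of 15 (13.3%) and 6 of 23 (26.1%). It lay in 8.08% of all genes counted that had a promoter and 8.30% of all single promoters. The first run of letters was about as frequent in the lower genes as in the others, and a match is a description of the sequence, not a bound site.

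Single cells showed the same order. Class I transcripts made up a median of 1.19% of the UMIs of a mIgG1 capillary-venous EC (10th to 90th percentile 0.763% to 2.00%) and 0.761% for Ang2 Ab (0.462% to 1.28%). For Ctrl the median was 0.898% (0.543% to 1.38%), and for *EC-Ang2* it was 1.04% (0.636% to 1.67%). Interferon-induced genes had medians of 0.794%, 0.637%, 0.574%, and 0.797%. The ranges of single cells overlapped widely between libraries, and the medians kept the order of the summed levels for class I.

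**Figure D4:**
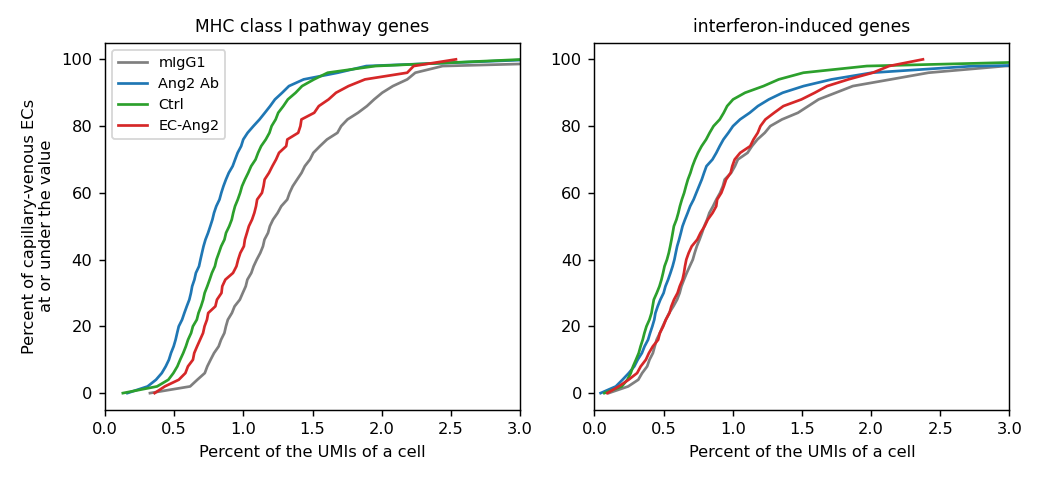
Cumulative shares of capillary-venous ECs (y axes) at or below a given percent of UMIs (x axes, ended at 3) from class I pathway genes (left) and interferon-induced genes (right), with 1 curve for each library. On the left the curves run from Ang2 Ab through Ctrl and *EC-Ang2* to mIgG1, with medians of 0.761%, 0.898%, 1.04%, and 1.19%.

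*Angpt2* itself (chromosome 8, 18690263 to 18741562, minus strand), the gene of the antibody's target and a ligand of the EC receptor Tie2, was higher in Ang2 Ab, at 329 CPM against 31.7 (log2 ratio 3.38, 2.97 to 3.82). A UMI was found in 32.2% of cells against 8.08%, and in 23.3% against 4.18% when each cell was thinned to 2000 UMIs. Immune cells held one in 0.932% and 0.0535% after the same thinning. *Scgb3a1* was higher in level (8588 CPM against 1899, log2 ratio 2.18, 2.12 to 2.23) and in share of cells (93.8% against 73.8%, with 16.3% and 3.42% of thinned immune cells), and Ctrl, at 3926 CPM, was also 1.05 above mIgG1 on the log2 scale. The receptor genes *Tek* (-0.16) and *Tie1* (-0.18), the phosphatase gene *Ptprb* (-0.19), and the shear-stress factor *Klf2* (-0.13) stayed within 1.5-fold.

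Further genes with the largest ratios were *Zbtb16* (19.3 CPM in mIgG1 and 80.8 in Ang2 Ab, 2.07), which encodes the transcription factor PLZF, *Ier5l* (17.4 and 60.9, 1.81), *Klhl6* (35.4 and 99.1, 1.48), *Mcam* (11.2 and 31.1, 1.48), and *Erdr1* (34.8 and 92.4, 1.41). *S100a9*, *S100a8*, and *Plac8* were on that list too, but free RNA alone would give 71.8%, 74.8%, and 125% of their UMIs in Ang2 Ab. *Lcn2* (674 and 1473 CPM, 1.13) and *Lrg1* (709 and 1629) were higher, whereas *Lcn2* was also 1.91 higher in Ctrl than in mIgG1. Lowest relative to mIgG1 were *Htra1* (60.2 and 18.7 CPM, -1.69), a secreted protease gene, *Hist1h1c* (74.5 and 23.2, -1.68), *Myl4* (32.9 and 11.2, -1.56), *8430408G22Rik* (851 and 298, -1.51), and *Tmcc3* (83.8 and 33.2, -1.34), besides *H2-Q7* and *H2-Q6*. *Gpnmb* and *Saa3* were among them as well, with free RNA expected to give 58.9% and 70.6% of their mIgG1 UMIs. In Ctrl over mIgG1, *Zbtb16*, *Ier5l*, *Klhl6*, *Mcam*, and *Erdr1* were at 1.15, -0.18, 1.11, 0.96, and -0.04. In the same control comparison *Htra1*, *Hist1h1c*, *Myl4*, *8430408G22Rik*, and *Tmcc3* were at -0.19, -1.14, -1.18, -0.49, and -0.41.

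Of 10 adhesion genes counted in the blockade pair 1 was higher (*Mcam*, 1.48) and 1 lower, beside 4.12% and 3.49% of all genes counted. Without the *Ackr1* gate *Mcam* was within 1.5-fold, at 0.28. The lower gene was *Vcam1*, at 171 CPM in mIgG1 and 110 in Ang2 Ab (-0.64, -0.88 to -0.39). It was detected in 22.8% and 11.3% of cells, and in 16.7% and 6.41% of thinned cells, against 2.73% and 2.14% of immune cells. In cells of 4000 to 8000 UMIs, however, which were fewer, the ratio was 0.15, and the cause of this turn was not tested. The ratio was also within 1.5-fold as a mean of the CPM of each cell (-0.54), without the 10% of ECs with the most UMIs (-0.49), and without the *Ackr1* gate (-0.38). Few cells carried most of the transcripts, as the tenth of cells with the most *Vcam1* held 80.4% and 97.4% of its UMIs. *Icam1* was at 284 and 227 CPM (-0.32) and *Pecam1* at 694 and 590.3 (-0.23). Barrier transporters were lower for 2 of 17 and higher for 0, namely *Slc6a6* (691 and 315 CPM, -1.13) and *Slc16a1* (284 and 164, -0.79), while *Slc2a1* (0.02) and *Mfsd2a* (-0.16) stayed within 1.5-fold. Junction genes and general EC markers passed 1.5-fold in 0 of 11 and 0 of 12.

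The overexpression pair asks what excess Ang2 from ECs does to the same cells. Here 528 of 5905 genes counted were higher in *EC-Ang2* than in Ctrl (8.94%) and 456 lower (7.72%), but *EC-Ang2* held 106 cells, and for 323 and 264 of these genes the interval left out no change. In other capillary ECs, with more cells, 200 were higher and 139 lower. Some of the lowest ratios rest on very few transcripts, such as those of *Dbp* (116 UMIs in Ctrl and 3 in *EC-Ang2*), *Apool* (111 and 3), and *Stard8* (110 and 3).

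*Angpt2* was at 945 CPM in *EC-Ang2* and 37.0 in Ctrl (4.67, 4.40 to 4.95). Whether the transgene's transcript ends in the part of *Angpt2* that these 3′ libraries count is not given, so the gene checks the label only in part. The excess was held by few cells. In *EC-Ang2*, 34.9% of capillary-venous ECs had an *Angpt2* UMI against 8.54% in Ctrl, and 10 of the 106 cells, with 10 UMIs or more, held 88.4% of all *Angpt2* UMIs there, up to 239 in 1 cell. The other *EC-Ang2* cells stood at 127 CPM. In Ang2 Ab the transcripts were spread more evenly, since 18 of 593 cells with 10 UMIs or more held 37.0%.

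*Car2*, which encodes carbonic anhydrase 2, followed the same kind of pattern. It was at 162, 134, 194, and 2596 CPM (3.74, 3.61 to 3.87, for *EC-Ang2* over Ctrl), yet 14 *EC-Ang2* cells with 10 UMIs or more held 93.0% of its UMIs, and the other cells stood at 215 CPM, near the 190 CPM of Ctrl cells below that line. Both applied to 3 cells, which were 30.0% of the 10 cells with many *Angpt2* UMIs, against 13.2% of all 106 cells with as many *Car2* UMIs. In other capillary ECs of *EC-Ang2*, 52 cells held 87.4% of *Angpt2* UMIs and 49 held 87.1% of *Car2* UMIs, with 11 cells in common (21.2% of the 52, against 8.43% of all cells). In venous ECs the numbers were 105, 97, and 30 (28.6%, against 11.3%). Cells with many *Angpt2* UMIs were also deeper, with a median of 7866 UMIs against 4990 for all capillary-venous ECs of *EC-Ang2*, and the part of depth in these shares was not tested. The line of 10 UMIs was set after these values had been seen.

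**Figure D5:**
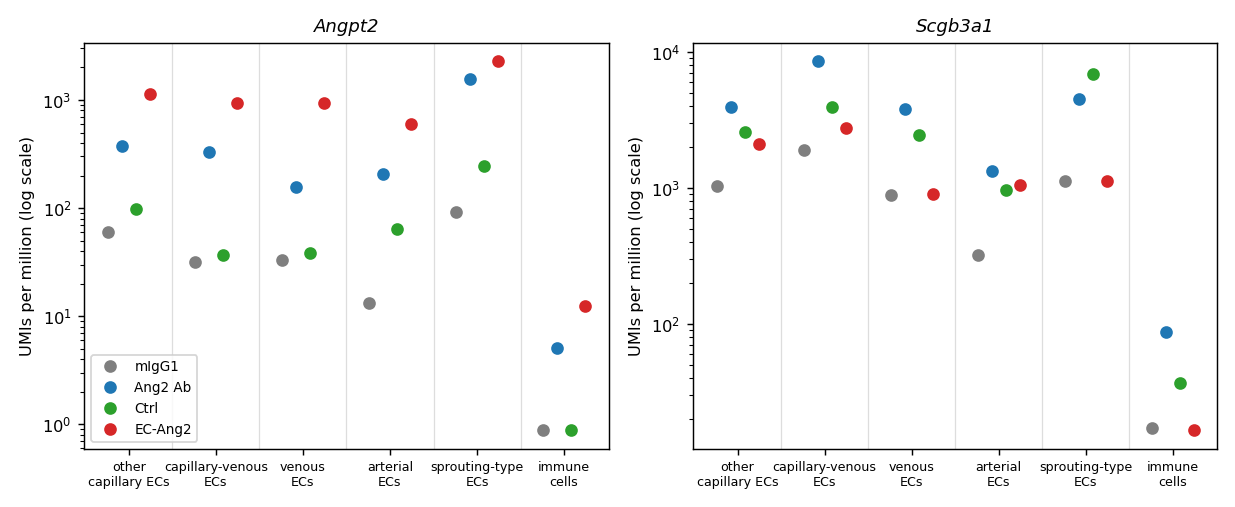
Levels of *Angpt2* (left) and *Scgb3a1* (right) in CPM on log scales (y axes) in 5 EC classes and immune cells (x axes), with 1 point for each library. *Angpt2* is highest in *EC-Ang2* and second in Ang2 Ab in each class, and *Scgb3a1* in capillary-venous ECs is highest in Ang2 Ab (8588 CPM).

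Some venous markers and acute-phase genes were higher in *EC-Ang2*. *Vcam1* was at 353 CPM against 120 in Ctrl (1.55, 1.31 to 1.79), with a UMI in 40.6% of cells against 17.0% (27.4% and 11.2% after thinning, and 2.44% and 4.10% in immune cells). *Vwf* was at 491 against 139 CPM (1.82), *Icam1* at 371 against 227 (0.70), *Sele* at 36.03 against 12.7 (1.505), and *Cxcl1* at 491 against 233 (1.07). With at least 5 UMIs of *Slc38a5* and *Tfrc*, *Icam1* (0.46) and *Sele* (0.22) were within 1.5-fold. With up to 2 *Ackr1* UMIs allowed, *Icam1* was also within 1.5-fold (0.577). *Serpina3n* was at 304 against 109 CPM (1.48) and *Lrg1* at 1723 against 691 (1.32), whereas *Lcn2*, at 3197 against 2531, stayed within 1.5-fold (0.34). In Ctrl over mIgG1, *Vwf* was at -1.29, *Vcam1* at -0.51, *Icam1* at -0.32, *Lrg1* at -0.04, and *Lcn2* at 1.91. Among the venous markers counted was the gate gene *Slc38a5*, at 748 CPM against 1121 in Ctrl, a level that the gate partly sets. Of the 5 venous markers counted, 3 were higher and 0 lower, and of 5 acute-phase genes 3 were higher and 0 lower, beside 8.94% higher and 7.72% lower of all genes counted. The third of these was *Saa3* (1.51), for which free RNA would supply 72.7% of the *EC-Ang2* UMIs and 175% of the Ctrl UMIs. In the same libraries *Vcam1* differed by 2.45 in other capillary ECs and by 0.44 in venous ECs.

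Other genes with the largest ratios in *EC-Ang2* were *Igfbp4* (35.4 CPM in Ctrl and 185 in *EC-Ang2*, 2.39), which encodes an insulin-like growth factor binding protein, *Bst1* (11.6 and 54.9, 2.24), *Adamts4* (16.1 and 65.2, 2.01), a protease of the matrix, *Glipr2* (22.2 and 85.8, 1.95), *Fndc3b* (11.1 and 41.2, 1.89), and *Egfl8* (8.46 and 30.9, 1.87). *Chil3* was among them with free RNA expected to give 86.7% of its UMIs. Some of these ratios also rest on few *EC-Ang2* transcripts, with 32 UMIs of *Bst1*, 38 of *Adamts4*, 24 of *Fndc3b*, and 18 of *Egfl8* (counting interval 0.95 to 2.74). In Ctrl over mIgG1, *Igfbp4*, *Bst1*, *Adamts4*, *Glipr2*, *Fndc3b*, and *Egfl8* were at -1.20, -0.16, 0.31, -0.05, -0.54, and -1.36. The lowest ratios were mostly those of transcripts of myeloid cells or erythrocytes (*Ccl3*, *Ly86*, *Cd83*, *C1qc*, *Ccl12*, *C1qa*, and *Hbb-bs*). Free RNA would give 69.5% to 163% of the Ctrl UMIs of the myeloid genes, and *Hbb-bs* was at 6384 CPM in Ctrl and 1383 in *EC-Ang2*.

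Several barrier transporters were lower in *EC-Ang2*. *Mfsd2a* was at 125 CPM against 296 in Ctrl (-1.24, -1.60 to -0.90), *Slc22a8* at 187 against 390 (-1.06), *Slc6a6* at 324 against 561 (-0.79), *Slco1a4* at 1247 against 1939 (-0.64), and *Slc7a5* at 399.8 against 619 (-0.63). As a mean of the CPM of each cell *Slco1a4* (-0.53) and *Slc7a5* (-0.47) were within 1.5-fold, as was *Slc6a6* with at least 5 UMIs of *Slc38a5* and *Tfrc* (-0.45). These 5 of 17 transporters were lower and 0 higher (median -0.51), and *Slc2a1* was at 3528 against 4528 CPM (-0.36). *Cxcl12*, at 247 against 727 CPM (-1.56), and *Ddc* (-0.80) were lower too, so that 3 of 4 capillary-arterial markers were lower. Genes of Wnt signaling and the barrier program were lower for 3 of 13 and higher for 0 (median -0.35), and junction genes lower for 1 of 11 and higher for 0 (0.03), beside 7.72% lower and 8.94% higher of all genes counted. The shear-stress factors *Klf2* (3866 and 2327 CPM, -0.73) and *Klf4* (-0.63) and the anticoagulant receptor gene *Thbd* (-0.80) were lower, whereas *Procr* (1.05) and *Tfpi* (0.80), also anticoagulant, were higher. In other capillary and venous ECs the transporter medians were -0.53 and -0.63.

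Some class I and interferon-induced genes were higher in *EC-Ang2* than in Ctrl, with median log2 ratios of 0.35 and 0.40. *H2-K1* was at 1182 CPM against 871 (0.44, 0.32 to 0.56), *H2-D1* at 2567 against 2081 (0.30), and *B2m* at 4310 against 3732 (0.21). At 1.5-fold, 5 of 19 class I pathway genes were higher (all genes counted 8.94%) and 0 lower (7.72%), namely *H2-Q7* (1.17), *Tap1* (0.92), *H2-Q4* (0.78), *H2-Q6* (0.78), and *H2-T22* (0.76). With at least 5 UMIs of *Slc38a5* and *Tfrc*, *H2-Q7* turned to -0.25 and *H2-Q4* to -0.016. Interferon-induced genes were higher for 6 of 25 and lower for 0, against the same shares of all genes, among them *Upp1* (46.0 and 141 CPM, 1.61), *Iigp1* (119 and 276, 1.22), *Irf1* (94.2 and 173, 0.88), and *Gbp4* (58.7 and 101.2, 0.79), while *Gbp3* (0.06), *Gbp7* (-0.07), and *Irgm1* (0.42) did not pass. *Gbp2* was at 0.50 in capillary-venous ECs against 1.59 in other capillary ECs and 1.55 in venous ECs of the same libraries, a difference that was not tested. With at least 5 UMIs of *Slc38a5* and *Tfrc*, *Gbp2* turned to -0.27, and *Gbp4* (0.37) and *Irf1* (0.32) were within 1.5-fold.

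Of the genes that the study lists for these cells, 20 of 33 counted were lower in Ang2 Ab (all genes counted 3.49%) and 0 higher (median -0.73), and 19 of 33 were higher in *EC-Ang2* (8.94%) and 0 lower (0.74). The list was chosen on these libraries, so its direction is not independent evidence, and in Ctrl over mIgG1 25 of 33 were lower and 0 higher (median -0.96). Medians in other capillary ECs were -0.71 and 1.02, and in venous ECs -0.81 and 0.78. The pairs share no library. Of all genes called, 28 were lower in Ang2 Ab and higher in *EC-Ang2* (15.5% and 5.30% of the genes called in those directions), including *Vcam1*, *Gbp4*, *H2-Q4*, *H2-Q6*, *H2-Q7*, *H2-T22*, *Tnfsf10*, and *Zbp1*. Of those recomputed with other gates and averaging, *Ecm1* and *Vcam1* in Ang2 Ab were within 1.5-fold or turned in at least 1 other setting. So were *Clec14a*, *Gbp4*, *H2-Q4*, *H2-Q7*, and *H2-T22* in *EC-Ang2*. Higher in Ang2 Ab and lower in *EC-Ang2* were 17 genes (7.94% and 3.73%), including *S100a8*, *S100a9*, and *Klhl6*. Another 30 were higher in both (14.0% and 5.68%), including *Angpt2*, *Lrg1*, *Ptgs2*, *Egr1*, and *Gpr182*, and 26 were lower in both (14.4% and 5.70%), including *Slc6a6*, *Ddc*, *Htra1*, and *8430408G22Rik*. For comparison, 8.94% of all genes counted in the overexpression pair were higher in *EC-Ang2* and 7.72% lower, over a larger set of counted genes than the blockade pair.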

How the data were processed

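Libraries were 10x Genomics Chromium 3′ v2. The authors deposited raw UMI counts for each of 737280 barcodes and each gene, empty droplets included. Per the labels, the processing notes name Cell Ranger 2.1.1, Seurat 2.3.4, and mm10. The libraries held 66631583 (mIgG1), 57954609 (Ang2 Ab), 52084739 (Ctrl), and 52796061 (EC-Ang2) UMIs.

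Barcodes were gated on these counts as stated in the report. No doublet caller was run. CPM are UMIs of a class per 1000000 UMIs of that class. Class tests used edgeR 4.0.16 (R 4.3.3, TMM scaling, library as a block, gate genes left out). In simulated data, the test against other capillary ECs recovered 92 of 100 genes changed 2-fold and 32 of 100 changed 1.5-fold. Pairs of libraries were described by ratios with exact conditional binomial intervals (SciPy 1.17.1), without a test. Free RNA profiles came from barcodes with at most 100 UMIs. Cells were thinned to 2000 UMIs to compare shares.

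Named genes were the 10 largest rises and falls of each class test (adjusted p below 0.05, same direction in 4 libraries, mean of at least 50 CPM) and of each pair, and genes of 42 lists. A few genes that met the rule are not reported here. The members, lists, motifs, and rules were chosen with earlier results of these data known. The alternatives were DESeq2 1.42.0, other scaling, filters, fold, averaging, depth, and gate settings, free RNA subtraction, no block, leaving out each library, and, added after seeing the data, looser *Ackr1* gates, cells without hemoglobin, and cells without leukocyte UMIs. A longer form of the GAAANNGAA motif was searched first and replaced after its counts had been seen. Gene coordinates are from GENCODE on GRCm38. The 4 libraries are of 4 conditions, and p values reflect how alike the difference between classes was among them.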

Additional observations from a re-analysis of the deposited data

Results flagged for a closer look

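MHC class II pathway genes had a median log2 ratio of -0.75 in capillary-venous ECs for *EC-Ang2* over Ctrl (4 genes counted), against 0.83 in other capillary ECs and 0.95 in venous ECs of the same libraries. The opposite signs drew attention, and the difference between the classes was not tested. The 7 genes of the list summed to 1188 UMIs in Ctrl and 121 in *EC-Ang2* capillary-venous ECs, and 40.3% and 38.7% of these cells held none of them. Once the UMIs expected from free RNA were subtracted, 0 UMIs of *H2-Aa*, *H2-Ab1*, *H2-Eb1*, and *Cd74* were left in both libraries, so no ratio could be given.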

How the results depend on the processing

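Shares of capillary-venous ECs among ECs were 18.7% (Ang2 Ab), 24.3% (Ctrl), and 6.50% (*EC-Ang2*) in cells of 4000 to 8000 UMIs. With at least 5 *Slc38a5* and *Tfrc* UMIs they were 5.21% (mIgG1), 8.30%, 12.5%, and 1.54%. For mIgG1 they were 13.5% without the 10% of ECs with the most UMIs and 13.7% without any leukocyte gene UMI. Without the *Ackr1* gate they were 37.2%, 35.4%, 35.1%, and 20.4%, and with up to 2 *Ackr1* UMIs 17.7%, 21.9%, 26.0%, and 7.25%; both, and the leukocyte setting, were added after seeing the data.

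Genes called in Ang2 Ab over mIgG1 (214 higher, 181 lower) became 1588 and 1182 with no filter on low values and 37 and 33 at 2-fold, and those higher became 331 in cells of 4000 to 8000 UMIs and 127 without the *Ackr1* gate. For *EC-Ang2* over Ctrl (528 and 456) they became 2095 and 1538, and 117 and 118, and those lower became 732 in the depth window, 837 with at least 5 UMIs, and 294 with up to 2 *Ackr1* UMIs. Among the called genes and medians recomputed, reversed were *Vcam1* in Ang2 Ab (0.15 in the depth window), *H2-Q4* (-0.016) and *H2-Q7* (-0.25) in *EC-Ang2* with at least 5 UMIs, and the transporter median in Ang2 Ab without the *Ackr1* gate (0.030). Several ratios within 1.5-fold changed sign too, such as *Gbp2* in *EC-Ang2* (0.50 to -0.27) and *Mfsd2a* in Ang2 Ab (-0.16 to 0.20). With free RNA subtracted, too few class II UMIs were left for a median in either pair. Class I medians ranged from -0.72 to -0.58 in Ang2 Ab and from 0.11 to 0.38 in *EC-Ang2*, and interferon-induced medians from -0.62 to -0.18 and from 0.19 to 0.46, over 11 settings.

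The block by library mattered for the class tests. Without it, edgeR called 0 genes higher (183 at an unadjusted p below 0.05) and 23 lower than in other capillary ECs, and 80 and 211 against venous ECs. DESeq2 with the block called 67 and 108, and 355 and 552. In cells of 4000 to 8000 UMIs the counts were 59 and 95, and 255 and 388. Leaving out 1 library gave 124 to 184 higher and 189 to 282 lower than in other capillary ECs (124 and 189 without Ang2 Ab, and 157 higher without Ctrl), and 499 to 743 and 679 to 934 against venous ECs. The causes of these shifts were not tested.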
